A study of Arabidopsis thaliana with 18 samples.

Results

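Transcript levels of the Arabidopsis thaliana mutant rao1-2 were compared with those of its wild type in seedlings sprayed with water, without any respiratory inhibitor. The members were taken from the sample labels: the 3 arrays of rao1-2 sprayed with deionised water (mock) and the 3 arrays of Col-Luc wild type sprayed in the same way, 6 of the 18 arrays of the series. Seedlings were 14 days old. They had been stratified for 48 h at 4 °C and then kept at 22 °C, on Gamborg B5 medium with 3% sucrose, under days of 16 h light and nights of 8 h. Whole green tissue was collected 3 h after spraying, and 400 ng of total RNA per sample was labelled for Affymetrix ATH1 arrays, a 1-colour platform that reads each transcript through several short oligonucleotides, together called a probe set. Other groups of 3 arrays each that are set beside the comparison were rao1-2, rao1-1 and Col-Luc seedlings 3 h after 50 µM antimycin A, and rao1-1 seedlings under mock. The genotype is given by name: the lesion of rao1-2 is not in the labels, and the sources used here do not give whether either mutant carries the reporter that the wild type's name points to. The labels number the replicates without saying that they came from separate cultures, so each p-value below sets a difference against a spread between samples that may be technical.

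Mitochondria report a block of respiration to the nucleus, and in plants the alternative oxidase gene AOX1A is the standard marker of this retrograde signal. The rao1 mutants were found in genetic screens for regulators of AOX1A, and the study's title names CDKE1, a cyclin-dependent kinase that belongs to the kinase module of Mediator, the complex that links transcription factors to RNA polymerase II. Antimycin A, which blocks complex III, elicits the signal. Without it the comparison of mutant and wild type measures the baseline on which the inhibitor acts. Neither CDKE1 nor AOX1A had a probe set named here, and they were not analysed here.

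Values are the deposited intensities on a linear scale, and differences are on the log2 scale, rao1-2 minus Col-Luc, with the standard error (SE) of limma's fit. A background limit was placed at an intensity of 19.7 (log2 4.3), between the 2 modes of all values, and was chosen with these values in view. On single arrays of the series 61.6% to 62.2% of the probe sets lay above it. Probe sets with an adjusted p under 0.05, over the 22746 tested, are referred to as called. The number of arrays limits the precision.

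Few probe sets were called between rao1-2 and wild type under mock, although 3031 had an unadjusted p under 0.05 in limma's fit. Of the 22746 probe sets 130 were called, 0.572%, with 61 higher in rao1-2 (0.268%) and 69 lower (0.303%). The median difference of the calls was 1.41 in size among those higher and 0.91 among those lower, and 68 of the 130 differed by at least 2-fold, 38 higher and 30 lower. Over all probe sets the median difference was -0.01. In all 130 calls no value of rao1-2 fell within the range of Col-Luc, but this also held for 2995 of all probe sets, 13.2% (5.65% higher in rao1-2 and 7.51% lower). Centred on the hybridisation controls instead, the calls were 140 higher and 44 lower. Centred on the poly(A) controls they were 69 higher and 99 lower, so the split by direction depends on the scaling. The hybridisation controls, added equally to each sample, averaged a log2 intensity of 11.68 ± 0.02 in rao1-2 and 11.80 ± 0.05 in Col-Luc (SD, n = 3 each). The groups did not overlap there (exact permutation test, two-sided, p = 0.1, the smallest that 3 against 3 arrays can give). The poly(A) controls averaged 7.10 ± 0.18 and 7.11 ± 0.09, and the groups overlapped.

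The size of the list rested on single arrays. Replicate 1 of rao1-2 was the array least like its group. Without it 934 probe sets were called, 4.11%, with 369 higher (1.62%) and 565 lower (2.48%), and among them were all 130 calls made with it. Without replicate 2 or 3 of rao1-2 there were 55 and 45 calls. Without replicate 1, 2 or 3 of Col-Luc there were 51, 57 and 226. Fitted on the 6 arrays alone, with no rao1-1 array to share the estimate of the spread, 14 probe sets were called (0.0615%), 8 higher (0.0352%) and 6 lower (0.0264%). Fitted on all 18 arrays, 312 were called (1.37%), 144 higher (0.633%) and 168 lower (0.739%). The plot of calls by setting shows these counts side by side.

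**Figure D1:**
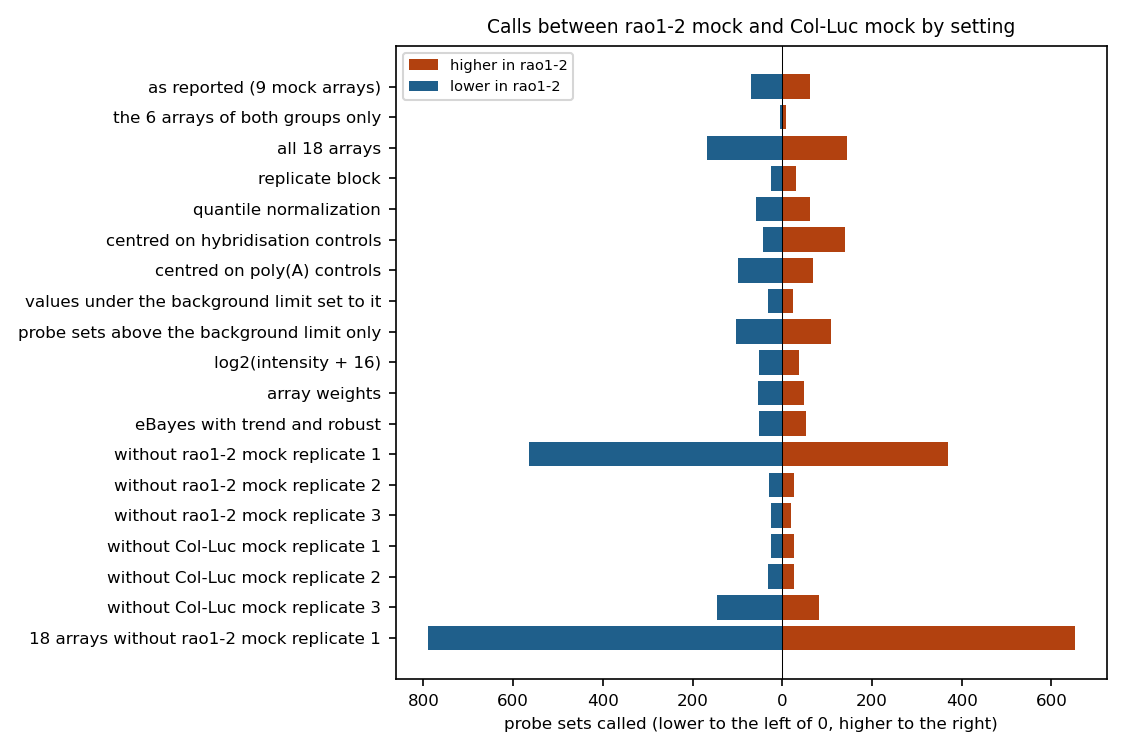
Number of probe sets called between rao1-2 mock and Col-Luc mock (horizontal axis, number of probe sets) under each setting (rows), with those higher in rao1-2 to the right of 0 and those lower to the left. Leaving out replicate 1 of rao1-2 gives 369 higher and 565 lower, against 61 and 69 with all 9 mock arrays.

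**Figure D2:**
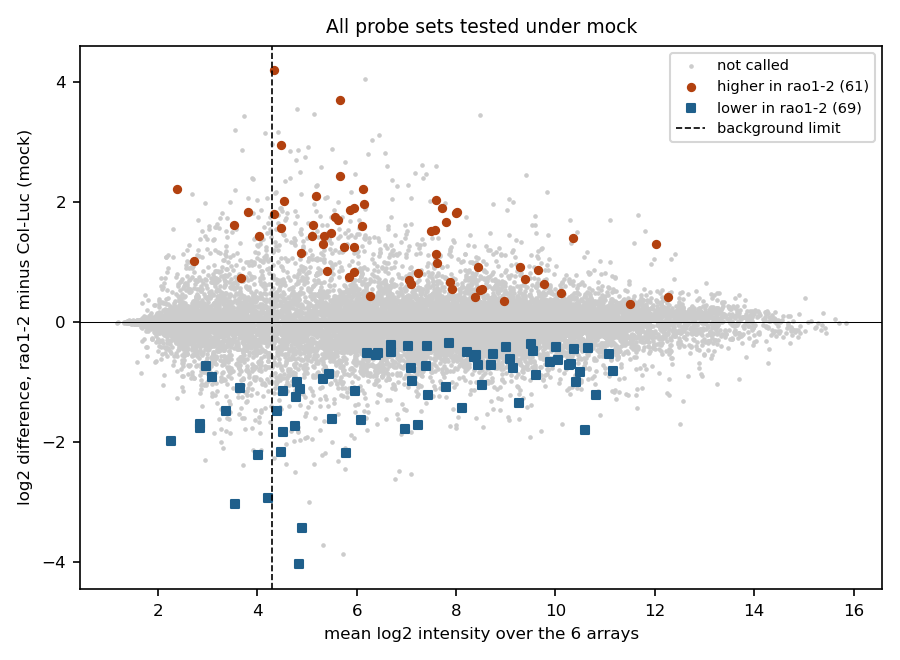
Log2 difference of rao1-2 minus Col-Luc under mock (vertical axis) against the mean log2 intensity over the 6 arrays (horizontal axis), with 1 point per probe set. The 61 probe sets called higher and the 69 called lower include 16 with a mean under the background limit (dashed line), 0.184% of the 8680 probe sets there, against 0.811% of the 14066 above it.

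Of the 130 calls, 71 named 1 gene. The 15 genes with the largest differences in each direction are described first. They were taken from calls whose groups did not overlap and that lay above the background limit on the 3 arrays of the higher group. Only 3 of these 30 have a symbol other than their locus in the RefSeq table used for names, and AT4G14480 has a name among its synonyms, so for the others no role is given. The 30 genes stayed called when replicate 1 of rao1-2 was left out, and 5 of them, AT3G10930, AT3G60520, AT1G70000, AT1G56710 and AT4G14480, were called under each of the 18 alternatives. The other 25 lost their call under at least 1: of the 30, 13 stayed called without replicate 2 of rao1-2, 13 without replicate 3, and 11, 15 and 25 without replicates 1, 2 and 3 of Col-Luc.

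The largest difference upward was that of AT5G62210. Its intensities were 33.6, 94.2 and 201 in rao1-2, against 4.11, 3.77 and 6.60 in Col-Luc. The wild-type values all lie under the background limit, so the gene was at least 4.37-fold higher in rao1-2 (log2 difference 4.20 ± 0.60, adjusted p = 0.0393), and its rao1-2 values spread more widely, in ratio, than those of the other 14. CHIL (AT5G05270) encodes a chalcone isomerase-like protein, a non-catalytic partner that promotes flavonoid synthesis. It read 59.4, 35.7 and 112 in rao1-2 and 6.63, 9.19 and 8.18 in Col-Luc. That is at least 3.14-fold higher in rao1-2 (2.96 ± 0.40, adjusted p = 0.0334). WSD1 (AT5G37300), an enzyme that makes wax esters for the cuticle, read 345, 331 and 553 in rao1-2 and 146, 110 and 120 in Col-Luc, 3.19-fold higher (1.68 ± 0.22, adjusted p = 0.0303). For CHIL and WSD1, as for AT5G62210, each of the 3 rao1-2 values exceeds each of the wild-type values, as their choice required.

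The arrays of each group lay close together for AT3G10930. It read 111, 109 and 135 in rao1-2 and 24.2, 20.8 and 20.3 in Col-Luc, 5.42-fold higher (2.44 ± 0.14, adjusted p = 0.00287). AT4G23870 read 85.2, 63.0 and 80.1 in rao1-2 and 14.4, 24.0 and 15.9 in Col-Luc (adjusted p = 0.00927), where 1 of the 3 arrays was above the background limit. Both genes were near the limit in wild type. AT3G47540 read 287, 457 and 457 in rao1-2 against 84.7, 71.7 and 143 in Col-Luc. AT4G19430 read 356, 548 and 568 against 120, 135 and 152. In these 2 genes replicate 1 of rao1-2 was the lowest of the 3 mutant arrays and still stood above the wild type.

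AT5G22580 read 5916, 6847 and 6754 in rao1-2 and 2497, 2289 and 3218 in Col-Luc (2.46-fold, adjusted p = 0.0123). AT3G60520 read 333, 293 and 352 in rao1-2 and 122, 100 and 113 in Col-Luc (2.92-fold, adjusted p = 0.00643). AT1G70000 read 78.8, 68.6 and 77.7 in rao1-2 and 23.6, 30.3 and 26.5 in Col-Luc (2.80-fold, adjusted p = 0.00334). In both the spread within a group is small beside the difference. The remaining 5, AT3G44970, AT5G22390, AT1G22030, AT1G60060 and AT1G67760, had mean intensities of 27.3 to 112 in rao1-2 and 9.99 to 30.5 in Col-Luc, with differences between 1.44 and 1.87. AT1G67760 was under the limit on all Col-Luc arrays and at least 1.36-fold higher in rao1-2.

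**Figure D3:**
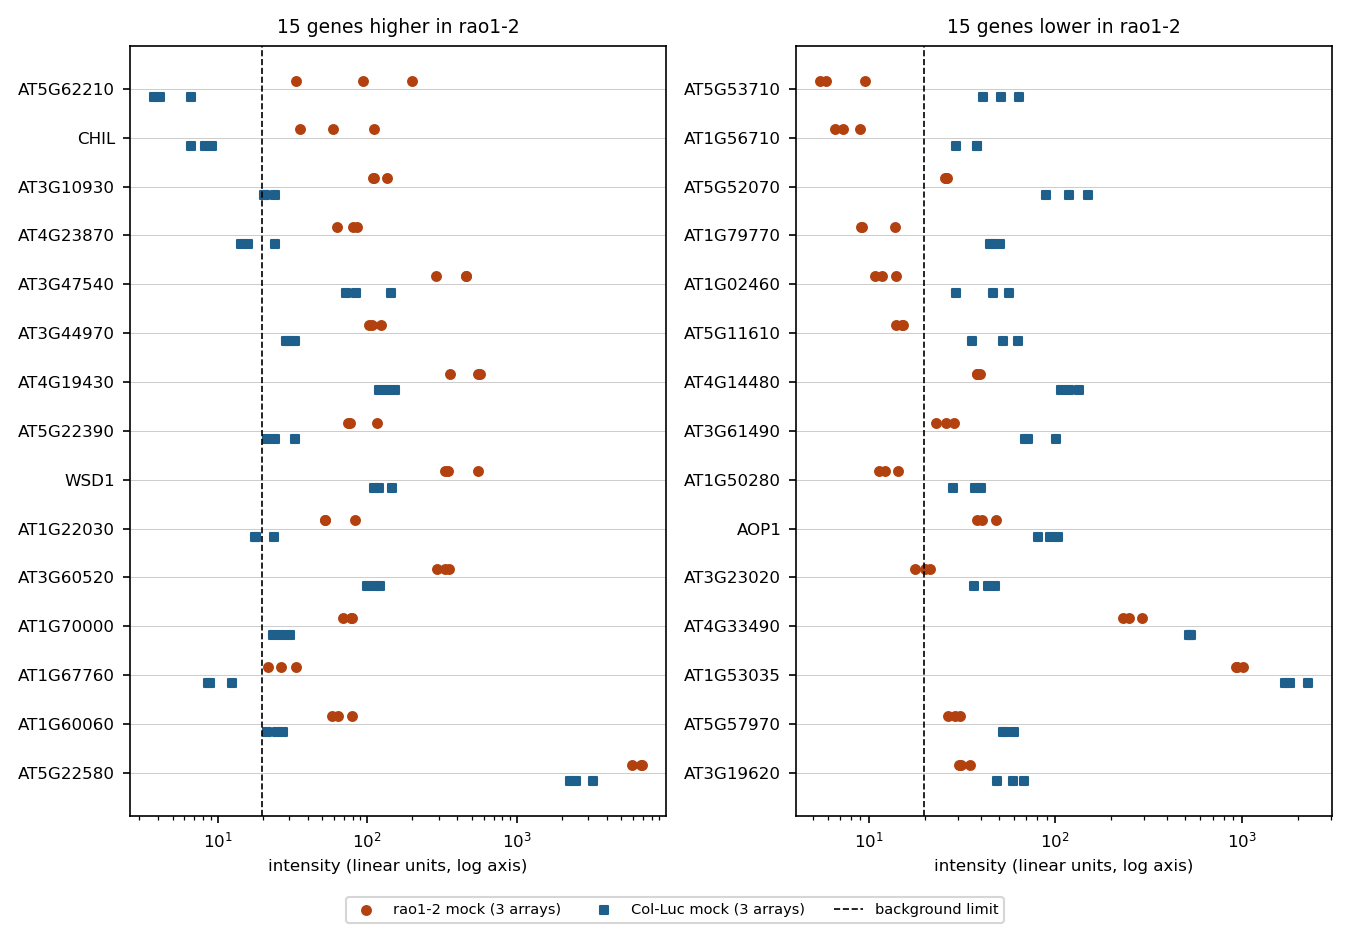
Intensity on each mock array (horizontal log axis, linear intensity units) of the 15 genes higher (left) and the 15 lower (right) with the largest differences, with the 3 rao1-2 arrays above the 3 Col-Luc arrays in each row. The groups do not overlap for any of the 30 genes, by the rule that chose them. For 3 of the higher genes the wild-type arrays, and for 6 of the lower genes the rao1-2 arrays, all lie under the background limit (dashed line).

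Downward, the largest difference, 4.03 in size, was that of a probe set unnamed here. AT5G53710 and AT1G56710 were clearly detected in wild type and fell under the background limit on all rao1-2 arrays. AT5G53710 read 5.48, 9.59 and 5.89 in rao1-2 and 41.1, 63.9 and 51.4 in Col-Luc, at least 2.60-fold lower in rao1-2 (-2.92 ± 0.24, adjusted p = 0.00667). AT1G56710 read 8.98, 7.25 and 6.58 in rao1-2 and 37.8, 37.9 and 29.3 in Col-Luc, at least 1.76-fold lower (-2.20 ± 0.16, adjusted p = 0.00541). AT1G79770, AT1G02460, AT5G11610 and AT1G50280 behaved alike: their means were 10.7 to 14.7 in rao1-2, under the limit, and 35.2 to 50.3 in Col-Luc, and they were lower by at least 1.77-fold to at least 2.49-fold.

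AT4G14480 is listed with the synonym BLUS1 (BLUE LIGHT SIGNALING1) in the RefSeq table; BLUS1 is a kinase of guard cells that links the phototropins, blue-light receptors, to stomatal opening. It read 38.2, 39.3 and 38.3 in rao1-2 and 133, 108 and 118 in Col-Luc, 3.09-fold lower in rao1-2 (-1.63 ± 0.09, adjusted p = 0.00287). AT5G52070 read 25.5, 26.0 and 26.3 in rao1-2 and 119, 150 and 89.0 in Col-Luc, 4.50-fold lower (-2.17 ± 0.30, adjusted p = 0.0359). In both genes the 3 mutant arrays lie within a few units of each other. AOP1 (AT4G03070), a dioxygenase gene named for the AOP locus of glucosinolate synthesis, read 40.2, 37.9 and 48.0 in rao1-2 and 80.9, 104 and 93.4 in Col-Luc, 2.20-fold lower (-1.14 ± 0.11, adjusted p = 0.0112).

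AT1G53035 and AT4G33490 lay far above the background limit in both groups. AT1G53035 read 1023, 950 and 934 in rao1-2 and 1826, 1705 and 2261 in Col-Luc, 1.98-fold lower, and AT4G33490 232, 248 and 291 against 526, 522 and 534, 2.06-fold lower. AT3G61490, AT3G23020, AT5G57970 and AT3G19620 made up the rest, with means of 19.7 to 32.2 in rao1-2 and 42.5 to 80.3 in Col-Luc and differences of -0.85 to -1.61.

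A further 8 calls have a symbol and qualify for naming, and they are given because their products are known; they were chosen after their values were seen. Their differences were smaller, between 0.42 and 0.73 in size. Higher in rao1-2 were the transcription factor genes bZIP44, with intensities of 851, 988 and 759 in rao1-2 and 482, 582 and 498 in Col-Luc, and TCP15, a class I TCP factor, with 269, 307 and 314 against 195, 198 and 207. HWS, which encodes the F-box protein HAWAIIAN SKIRT, was 1.36-fold higher (adjusted p = 0.0441). Lower was UGT88A1, a UDP-glycosyltransferase gene, at 1041, 914 and 952 in rao1-2 and 1623, 1595 and 1526 in Col-Luc (-0.71 ± 0.06, adjusted p = 0.00643). CHX20, a cation/H+ exchanger of guard cells, read 287, 280 and 246 in rao1-2 and 402, 448 and 475 in Col-Luc (-0.70 ± 0.09, adjusted p = 0.0276). PGL34, a protein of plastoglobules (lipid droplets of the chloroplast), the actin-binding LIM protein WLIM1 and the carboxypeptidase SCPL49 were 1.43-fold, 1.44-fold and 1.34-fold lower. In each of the 8 genes the groups do not overlap, which the rule for naming required. Of the 18 alternatives, 15 ended the call of HWS, 13 those of bZIP44 and SCPL49 and 1 that of UGT88A1.

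The calls were also looked up in gene lists of known pathways, tissues and organelle genomes. These cover a small part of the probe sets, so they can hold few of the calls. Of 31 gene lists, 28 had members named here, 204 probe sets in all, and 3 of these were called, 2 higher and 1 lower, beside 0.572% of all probe sets: CHIL among 7 flavonoid and anthocyanin genes, WSD1 of 2 cuticle and wax genes, and EXPA16 among 15 expansin and wall-loosening genes. EXPA16 (AT3G55500), an expansin that loosens cell walls, read 5.98, 5.93 and 6.72 in rao1-2 and 10.8, 13.1 and 11.2 in Col-Luc. All these values are under the background limit, so no fold is given for it, although the fit called it (adjusted p = 0.00927). Without replicate 1 of rao1-2, 15 of the 204 were called, 6 higher and 9 lower, beside 4.11% of all probe sets. A further 8 measured genes were left out of the lists because the RefSeq table does not give the symbol under which they had been written. Of these, AT4G14090, from the flavonoid list, was called lower, with 3.98, 3.97 and 3.71 in rao1-2 and 15.5, 15.9 and 9.15 in Col-Luc, all under the background limit (adjusted p = 0.0186). Of 28 gene families grouped by the stem of their symbols, with at least 8 named members each, 5 held a call and none held more than 1: UGT88A1 of 47 UGT genes, bZIP44 of 14 bZIP genes, SCPL49 of 29 SCPL genes, SWEET10 of 14 SWEET sugar transporter genes and EXPA16 of 10 EXPA genes. SWEET10, like EXPA16, was under the background limit on all 6 arrays, at 4.10, 3.82 and 4.16 in rao1-2 and 9.90, 11.99 and 18.3 in Col-Luc. Without replicate 1 of rao1-2, 11 families held a call, and the UGT family held 6, 3 higher and 3 lower. By chromosome, 22 of 3411 named genes were called on chromosome 1 (0.645%), 4 of 2169 on chromosome 2 (0.184%) and 18 of 2720 on chromosome 3 (0.662%). On chromosome 4 there were 10 of 1935 (0.517%) and on chromosome 5 17 of 2981 (0.570%). The share over all probe sets was 0.572%. Of 5813 pairs of neighbouring genes with a named probe set each, 0 pairs had both genes called. Without replicate 1 there were 13, and 8 of these went the same way. With 0.572% and 4.11% of all probe sets called, the number of such pairs to be met without any clustering was not worked out. Nothing is read from the pair counts.

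The listed markers of the retrograde signal that were measured here were not called under mock. Of 9 mitochondrial dysfunction markers, which respond to a block of respiration, 0 were called. A positive difference was found in 8, beside 10024 of all 22746 probe sets, and the median was 0.86, beside -0.01 over all. However, 3 of the 9 were under the background limit on all 6 arrays. The median was that of AT2G04070, at 42.3, 88.5 and 92.9 in rao1-2 and 5.61, 92.2 and 111 in Col-Luc. Without replicate 1 the median was 1.18, that of AT2G04050, 1 of the 3 under the limit. Then 1 was called higher, AT5G43450 at 670, 1703 and 1819 in rao1-2 and 941, 1044 and 1262 in Col-Luc. GSTU25, a glutathione transferase of the tau class, had the smallest p of the list (adjusted p = 0.248). It read 20.6, 146 and 284 in rao1-2 and 5.56, 6.80 and 13.8 in Col-Luc. NDB2, an external NADH dehydrogenase of the mitochondrion that bypasses complex I, read 114, 508 and 591 in rao1-2 and 65.6, 130 and 214 in Col-Luc (adjusted p = 0.440). In both, replicate 1 of rao1-2 lay far below replicates 2 and 3. The marker AT2G41730 read 109, 817 and 1811 in rao1-2 and 98.2, 121 and 348 in Col-Luc, and was not called (adjusted p = 0.516). Its wild-type arrays varied more than 3-fold among themselves and reached above replicate 1 of rao1-2. The 3 further markers left out by the symbol rule, AT2G21640, AT5G09570 and AT5G51440, differed by 1.18, 0.03 and 0.47 and were not called (adjusted p = 0.591, 0.919 and 0.963).

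Of the 5 alternative respiration genes 0 were called (median -0.01); NDB2 and NDB4 (-0.01) are in this list and among the markers. NDC1, a type II NAD(P)H dehydrogenase, had the smallest p, at 606, 539 and 506 in rao1-2 and 611, 628 and 630 in Col-Luc (adjusted p = 0.340). Of the 12 genes of complex III and cytochrome c, 0 were called and 11 had a positive difference, with a median of 0.21. AT5G25450 read 317, 429 and 442 in rao1-2 and 271, 234 and 260 in Col-Luc (0.62 ± 0.17, adjusted p = 0.192). The 15 mitochondrion-encoded genes had a median of 0.01 and the 69 plastid-encoded genes one of -0.08, with 0 called in either. Without replicate 1 of rao1-2, 1 complex III gene was called higher, AT3G27240 (adjusted p = 0.0349), and 3 plastid-encoded genes lower, psbB (0.0457) and atpA (0.0489) among them. MED18 (AT2G22370), a Mediator subunit, read 203, 257 and 247 in rao1-2 and 210, 223 and 232 in Col-Luc (0.08 ± 0.10). The symbol rule also left out 2 loci of the Mediator list, AT5G48640, which read 227, 176 and 189 in rao1-2 and 208, 297 and 228 in Col-Luc, and AT5G48630, with 644, 478 and 510 in rao1-2 and 596, 706 and 705 in Col-Luc; neither was called (adjusted p = 0.463 and 0.339).

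The tissue label was checked on genes of other organs. The 10 nuclear photosynthesis genes read between 5907 and 30708 on the 6 arrays, with 0 called and a median difference of -0.10. Of 3 root markers, the root-hair expansins EXPA7 and EXPA18 lay under 5 on all 6 arrays, while the beta-glucosidase PYK10, which is also made in hypocotyls, read 790, 543 and 54.6 in rao1-2 and 661, 994 and 741 in Col-Luc. Of 2 stomatal lineage genes, FMA (FAMA), which completes guard cell formation, read 129, 140 and 114 in rao1-2 and 249, 227 and 171 in Col-Luc, a difference of -0.74 ± 0.15 that was not called (adjusted p = 0.0964). SPCH, which starts the lineage, read 26.4, 21.7 and 24.0 in rao1-2 and 39.0, 36.4 and 20.7 in Col-Luc. The part of cell composition in the lower values of BLUS1 and CHX20 was not tested; in whole tissue fewer cells of a type and less RNA per cell cannot be told apart. Vascular and seed storage markers had no named probe set here.

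Some members of lists without a call lay apart from wild type on all arrays. Of 4 cold and abscisic acid genes all had a negative difference (median -1.18), and COR15B, a cold-regulated protein of the chloroplast, read 506, 344 and 439 in rao1-2 and 981, 1682 and 859 in Col-Luc (-1.40 ± 0.27, adjusted p = 0.0828). WES1 (GH3.5), an enzyme that conjugates auxin to amino acids, read 692, 505 and 426 in rao1-2 and 309, 230 and 251 in Col-Luc (1.02 ± 0.18, adjusted p = 0.0728). ARR15, a type-A response regulator induced by cytokinin, read 18.2, 11.9 and 20.6 in rao1-2 and 62.8, 44.6 and 84.5 in Col-Luc (adjusted p = 0.0598). In these 3 genes the groups do not overlap, as in 13.2% of all probe sets. The 3 were called without replicate 1 of rao1-2, at adjusted p = 0.0482, 0.0371 and 0.0451, as were 4.11% of all probe sets. Each was taken as the member with the smallest p of its list, so these traits follow in part from the choice.

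How replicate 1 of rao1-2 differs from its group was described on 14066 probe sets whose mean over the 6 arrays lies above the background limit. Its mean correlation with the other arrays of its group was 0.985, against 0.990 and 0.989 for replicates 2 and 3 and 0.990 to 0.992 for the wild-type arrays. It deviated by more than 2-fold from the mean of the other 2 in 1076 probe sets, against 339 and 552 for replicates 2 and 3 of rao1-2 and 299 to 553 for the wild-type arrays. Of the 10 genes in which it lay farthest below the other 2, 7 were raised by antimycin A in rao1-1. Of the 10 in which it lay farthest above, 1 was. Over all probe sets 15.8% were raised, and above the limit 20.5%. That response is a difference between rao1-1 arrays only. Its spread was estimated on all arrays of the series, replicate 1 of rao1-2 among them, so it is not fully independent of that array. The 10 below include the glycosyltransferase gene UGT73B5, at 20.5, 199 and 466 in rao1-2 and 13.9, 46.5 and 158 in Col-Luc, and AT4G01870, at 361, 4830 and 6657 in rao1-2 and 343, 661 and 1492 in Col-Luc. Among the 10 in which it lay farthest above was EXPA8, at 1314, 159 and 138 in rao1-2 and 1496, 988 and 576 in Col-Luc. In these 3 genes replicate 1 of rao1-2 lay within the range of the wild-type arrays, which themselves spread over more than 2-fold.

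The 804 probe sets called only once that array was left out, 308 higher and 496 lower, were described by where it lay. In the median of the 804 its value had moved 19.0% of the way from the wild-type mean to that of replicates 2 and 3, against 95.9% in the 130 calls made with it. Both shares follow in part from how the sets were chosen, with and without that array, and are a description. It fell on the other side of the wild-type mean in 227 of the 804, and within the range of the 3 wild-type arrays in 289. From those with a symbol, the 12 higher and the 12 lower with the largest differences are shown in the plot of genes called without replicate 1; the rule was chosen after the values were seen.

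Higher among them were SAL2, a phosphatase of the SAL family, and the glycosyltransferase genes UGT73B4 and UGT73C1. SAL2 read 21.1, 146 and 145 in rao1-2 and 9.28, 8.10 and 15.03 in Col-Luc. UGT73B4 read 21.2, 110 and 230 in rao1-2 and 17.4, 8.56 and 11.6 in Col-Luc, under the background limit. It was at least 8.08-fold higher without replicate 1 (adjusted p = 0.0179) and at least 4.13-fold with it, where it was not called (adjusted p = 0.204). The 3 pectin methylesterase genes PMEPCRF, PME61 and ATPMEPCRB, whose enzymes modify wall pectin, were 1.56, 1.14 and 0.92 higher on the log2 scale without replicate 1, and the auxin glucosyltransferase gene IAGLU 1.69 higher. Lower were IAA29, a repressor of auxin-responsive transcription, at 44.2, 8.31 and 8.49 in rao1-2 and 29.2, 35.5 and 25.2 in Col-Luc, and the defensin gene PDF1.4. COR27, a cold-regulated gene tied to the clock, read 519, 476 and 208 in rao1-2 and 1529, 1503 and 1203 in Col-Luc. Here replicate 1 stands with the other mutant arrays, and the gene was called without that array (adjusted p = 0.0312) and not with it (0.0637).

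**Figure D4:**
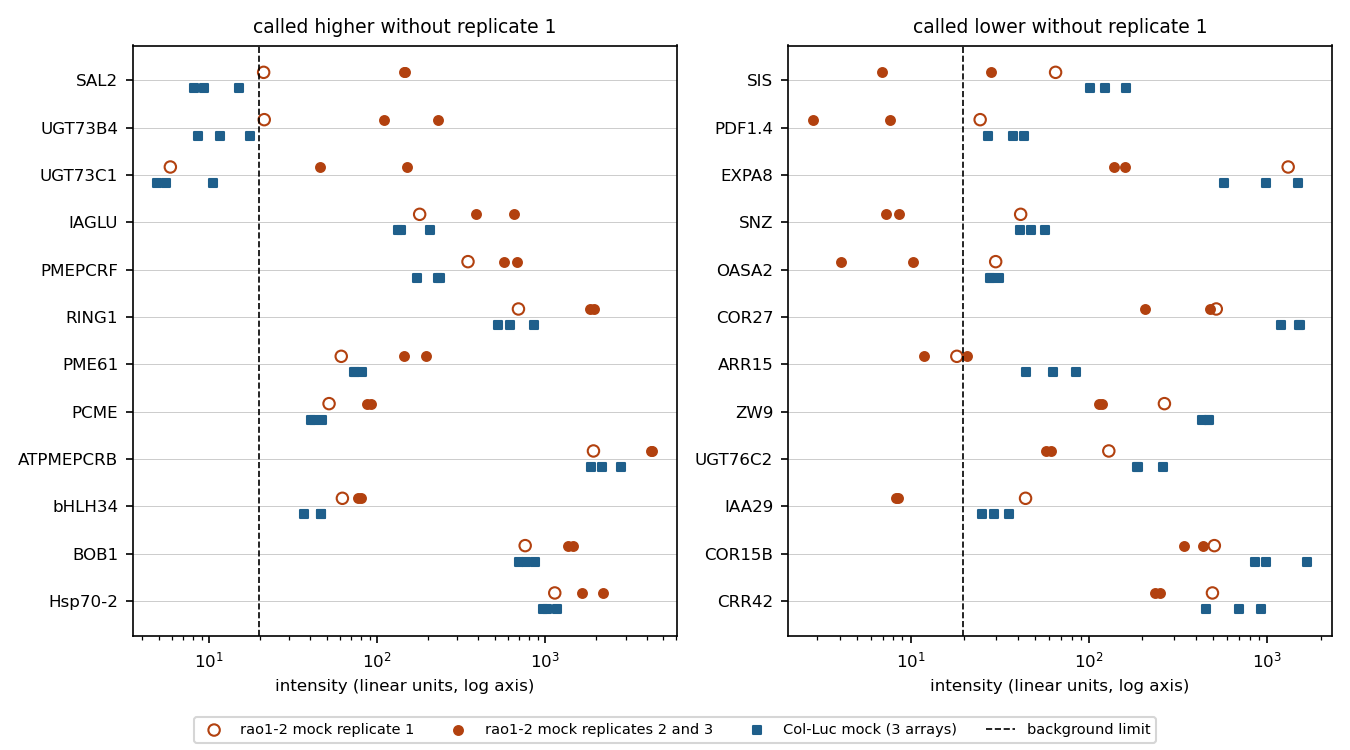
Intensity on each mock array (horizontal log axis, linear intensity units) of the 12 genes called higher (left) and the 12 called lower (right) only without replicate 1 of rao1-2, with rao1-2 above Col-Luc in each row and replicate 1 of rao1-2 as an open circle. In RING1, EXPA8 and SNZ, for example, the open circle lies among the wild-type arrays (squares), while replicates 2 and 3 stand apart.

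The same genotypes were also compared under antimycin A, on 6 other arrays, where 220 probe sets were called, 117 higher (0.514%) and 103 lower (0.453%), together 0.967%. Of the 130 mock calls, 109 (83.8%) had the same sign under antimycin A, beside 57.3% of the 14066 probe sets above the limit, and 17 were called in the same direction, 8 higher and 9 lower, with 0 called in the opposite one. Differences under antimycin A were smaller: the median of the 61 higher calls was 0.51, beside 1.41 under mock, and that of the 69 lower was -0.37, beside -0.91. The median under mock is inflated by the choice of calls on that contrast.

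Some genes kept their difference under the inhibitor at changed levels. WSD1 read 44.9, 27.1 and 54.7 in rao1-2 and 6.32, 4.17 and 4.63 in Col-Luc under antimycin A (adjusted p = 0.0113). Col-Luc was there under the background limit on all 3 arrays, so WSD1 was at least 2.06-fold higher in rao1-2, and all values lay below those under mock. AT4G23870 read 359, 367 and 332 in rao1-2 and 92.3, 64.9 and 64.7 in Col-Luc (2.27 ± 0.33, adjusted p = 0.0326), and AT5G22390 180, 272 and 193 against 62.7, 68.5 and 45.5 (1.87 ± 0.27, adjusted p = 0.0321). AT5G62210 was also called, with 22.7, 32.1 and 20.0 in rao1-2 and 4.19, 4.37 and 5.05 in Col-Luc, at least 1.24-fold higher. BLUS1 read 11.3, 16.7 and 15.1 in rao1-2 and 38.3, 36.9 and 42.6 in Col-Luc, a difference of -1.47 ± 0.36 that was not called (adjusted p = 0.120). Of the 30 genes with the largest mock differences, 14 of 15 higher and 12 of 15 lower kept their sign, beside 57.3% of probe sets above the limit. Under antimycin A 6 and 2 were called, beside 0.967% of all probe sets. Several of the 30, CHIL and AT5G53710 among them, were there under the limit in both genotypes, so their sign is not measured. This also holds for AT1G79770, which was called lower at 3.71, 5.40 and 4.17 in rao1-2 and 8.88, 8.94 and 9.15 in Col-Luc.

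**Figure D5:**
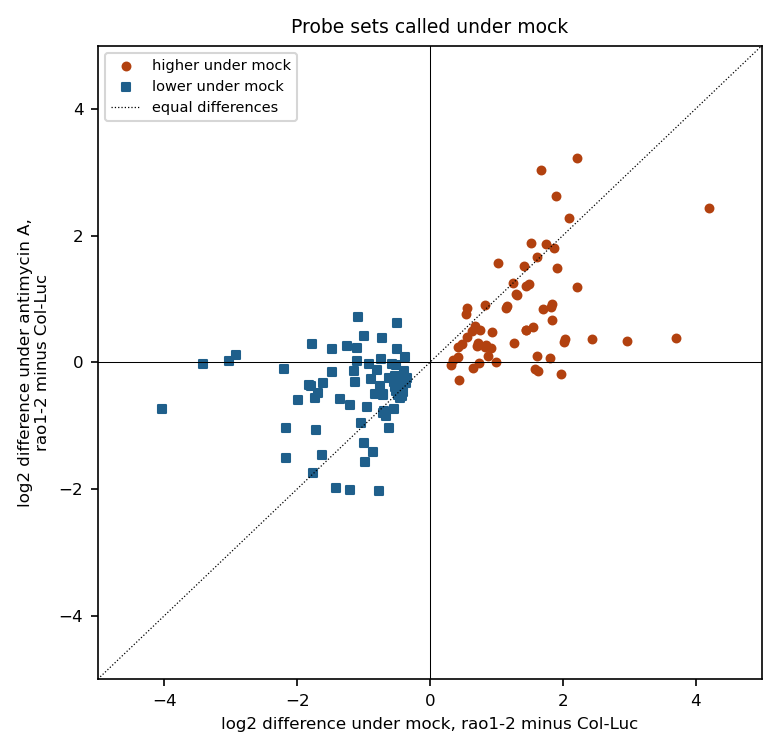
Log2 difference of rao1-2 minus Col-Luc under antimycin A (vertical axis) against the same difference under mock (horizontal axis) for the 130 probe sets called under mock, which share no array between the axes. Of the 130 points 109 have the same sign on both axes; the dotted line marks equal differences.

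The response to the inhibitor in rao1-1 was set beside the calls. No rao1-1 array enters the difference between rao1-2 and Col-Luc itself. The rao1-1 mock arrays do enter the estimate of spread behind the calls. The spread for the response was in turn estimated on all arrays of the series. The calls and the response are therefore not fully independent. Of the 61 higher calls, 30 fell and 14 rose with antimycin A in rao1-1, and of the 69 lower calls 26 fell and 10 rose. Over all probe sets 24.8% fell and 15.8% rose (40.6% called in all), and over the 14066 above the limit 39.1% fell and 20.5% rose. The shares among the calls, 49.2% and 22.95% of those higher and 37.7% and 14.5% of those lower, are set against that background, and no more is read from them. AT3G10930 rose in rao1-1 by 4.71 on the log2 scale, and reached 2494, 2274 and 3823 in rao1-2 and 1851, 2099 and 2572 in Col-Luc under the inhibitor. By the test of the difference between the mock and the antimycin A contrast, on all 18 arrays, 45 probe sets passed (0.198%). The mock difference was the more positive in 26 (0.114%) and the more negative in 19 (0.0835%). Of the 130 mock calls, 20 were among the 45. The mock difference is a term of this test, so that overlap follows in part from the choice of calls.

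The other mutant of the series, rao1-1, was measured under mock on arrays set against the same 3 wild-type arrays, so its agreement with rao1-2 is no independent result, and the values are given side by side. AT5G62210 read 138, 153 and 106 in rao1-1, CHIL 42.4, 49.9 and 30.2, and AT3G10930 110, 118 and 88.4. BLUS1 read 57.0, 51.0 and 59.3 there, and AT5G53710 5.47, 5.79 and 4.80. WSD1 read 205, 153 and 194 in rao1-1 and AT1G50280 read 23.4, 31.3 and 22.8. For WSD1 these values lie between those of rao1-2 and Col-Luc, and for AT1G50280 they overlap those of Col-Luc. Neither was called between rao1-1 and Col-Luc (adjusted p = 0.267 and 0.260). In limma's fit neither was called between rao1-2 and rao1-1 (adjusted p = 0.385 and 0.267), so no difference between the mutants is shown for them. The 7 genes were chosen after their values were seen. Over the 61 higher calls the median distance of single arrays from the Col-Luc mean was 1.21 to 1.34 in rao1-1 and 1.26 to 1.40 in rao1-2. Over the 69 lower calls it was -0.82 to -0.86 in rao1-1 and -0.88 to -0.92 in rao1-2. Most of the difference was thus not particular to rao1-2, with the limit that both mutants share the wild-type arrays.

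The mutants were then tested directly against each other. Between rao1-2 and rao1-1 under mock 9 probe sets were called (0.0396%), 6 higher (0.0264%) and 3 lower (0.0132%) in rao1-2, with 1300 at an unadjusted p under 0.05; without replicate 1 of rao1-2 there were 55, and without replicate 2 or 3 there were 2 and 1. Of the 9, 5 named 1 gene, and these are named although the rule for named genes, which required a call against wild type as well, left them out. AT2G33850 read 837, 869 and 1096 in rao1-2 and 99.9, 37.3 and 40.5 in rao1-1, a difference of 4.12 ± 0.37 (adjusted p = 0.0216), and Col-Luc at 989, 676 and 983 was like rao1-2. AT4G08170 read 138, 148 and 141 in rao1-2 and 98.4, 96.9 and 96.0 in rao1-1. AT5G12940 read 17.7, 20.6 and 20.7 in rao1-2 and 2.75, 2.76 and 3.03 in rao1-1, with 12.5, 14.8 and 15.9 in Col-Luc. Lower in rao1-2 were AT5G19580, at 13.0, 12.4 and 11.8 against 24.8, 24.7 and 31.1 in rao1-1, and AT4G24480, at 12.3, 15.3 and 14.1 against 45.3, 44.4 and 45.2. Col-Luc read 135, 147 and 136 for AT4G08170 and 13.3, 12.9 and 13.0 for AT5G19580, so in these 2 genes, as in AT2G33850, the rao1-2 values lay within or close to the range of Col-Luc. For AT4G24480 Col-Luc read 26.4, 18.2 and 26.3, between the mutants. AT5G19580 and AT4G24480 were under the background limit on all rao1-2 arrays, and AT5G12940 on all rao1-1 arrays.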

How the data were processed

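The 18 arrays were 1-colour Affymetrix ATH1 arrays. The deposited table holds linear intensities that the authors had normalized. Per the submitters' processing notes RMA and GCRMA were used; no version is stated, nor which of the 2 made the table. Either method brings the arrays to a similar overall distribution, which can hide a shift shared by most genes. The medians of the deposited arrays still ranged from 78.0 to 92.1. Intensities were turned into log2 values without a pseudocount. The 64 control probe sets were left out. For each of 22746 probe sets limma 3.58.1 (R 4.3.3) fitted the 9 mock arrays with 1 mean for each of 3 genotypes (6 residual degrees of freedom) and eBayes. The two-sided p-values were Benjamini-Hochberg adjusted. The antimycin A comparison used the 9 treated arrays, and differences between treatments all 18. The fit was tested on simulated data.

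The platform annotation gave 1 gene to 13513 probe sets, of which 13436 were found in RefSeq's gene table (TAIR10.1), from which names and the order of neighbours were taken, and 77 were not; 503 had several genes and 8730 were unnamed here. The probe set with the highest mean represents a gene. Named were the 15 higher and 15 lower with the largest differences among non-overlapping calls above the background limit in the higher group, up to 4 called members of a list or that with the smallest p, and others as stated. Where a group lay under the limit on all 3 arrays, "at least" folds use the limit for it. The members, lists and rules were chosen with earlier results of these data known.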

Additional observations from a re-analysis of the deposited data

Results flagged for a closer look

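For 7 named genes the difference between rao1-2 and Col-Luc under mock was itself different from that under antimycin A, by the interaction term of a limma fit on all 18 arrays (45 of 22746 probe sets passed, 0.198%). The 7 are among the genes named for their large mock differences. That difference is a term of the test, so their passing follows in part from the choice. CHIL was 2.63 ± 0.45 higher in the mock difference than in the antimycin A difference (adjusted p = 0.0311), AT3G10930 2.07 ± 0.31 (0.0137) and AT3G60520 0.99 ± 0.16 (0.0189). The mock difference of AT5G53710 was more negative by -3.03 ± 0.27 (adjusted p = 0.000167), that of AT1G56710 by -2.10 ± 0.19 (0.000167), that of AT1G50280 by -1.69 ± 0.24 (0.012) and that of AT3G23020 by -1.33 ± 0.22 (0.0262). For 5 of the 7, CHIL among them, the values of both genotypes lay under the background limit on all arrays under antimycin A, at 8.28, 9.45 and 7.23 in rao1-2 and 7.01, 6.44 and 6.30 in Col-Luc for CHIL, so in these 5 genes the antimycin A difference is not measured. AT3G10930 and AT3G60520 were above the limit on all these arrays, and AT3G60520 stayed higher in rao1-2 under antimycin A, at 448, 505 and 534, against 313, 332 and 364 in Col-Luc (0.56 ± 0.09, adjusted p = 0.0448).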

How the results depend on the processing

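The direction of the 30 genes with the largest differences did not change under the 18 alternatives, which their choice from groups that do not overlap largely fixes. The count of calls between rao1-2 and Col-Luc under mock (130) was 14 on the 6 arrays alone, 312 on all 18 arrays, 57 with dim values raised to the background limit (EXPA16 then differs by 0 and is no longer called), 212 of the 13872 probe sets above the limit, and 45 to 934 on leaving out 1 array. The 18 arrays without replicate 1 of rao1-2, a setting added after seeing the data, gave 1442. Other scalings, a pseudocount of 16, array weights and a robust trend gave 89 to 184. Centred on the hybridisation controls 76.1% of calls were higher, against 46.9%, and the median of all differences moved by 0.12. Centred on the poly(A) controls 41.1% were higher, and the median moved by 0.01. With the replicate number as a block there were 55 calls, 42 of them shared. Same-numbered arrays of both groups correlated in their deviations at 0.44, -0.05 and 0.44, and differently numbered ones at -0.55 to 0.35. Whether the numbers pair the samples was not tested, and 3 arrays per group are too few to decide it. The blocked count was 2 between the mutants (9) and 229 under antimycin A (220). Of the 30 genes, 16 were no longer called with the block, 24 on the 6 arrays alone and 0 without replicate 1 of rao1-2.

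Without replicate 1 of rao1-2 the 934 calls became 1442 with all other arrays and 10 on the 5 arrays alone. The calls between the mutants were 33 on 18 arrays and 1 to 55 on leaving out 1 array. Those under antimycin A were 560 and 17 to 210. List members called were 15 without replicate 1 (3 with it). The cause of these changes was not tested. The number of arrays and, for genes near the background limit, the signal limit all of these values.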
